A study of Homo sapiens with 14 samples.

Results

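The average knockdown effect described here was the mean of 4 differences, each between libraries carrying an anti-ZBP1 hairpin and their own scramble control, in 2 human multiple myeloma cell lines. It used 14 of the 14 libraries of the study, 8 with a knockdown and 6 with a scramble, in 1 model with 7 group means. ZBP1 is a cytosolic sensor of nucleic acids in the Z form, its gene is induced by interferon, and it can trigger necroptosis, a lytic form of cell death, through the kinase RIPK3. Poly(A)-selected RNA was sequenced from MM1.S and H929 cells transduced with lentivirus, and every group held 2 libraries. In MM1.S the groups were 1 scramble, shRNA1 and shRNA2, so the same scramble libraries entered 2 of the 4 differences. In H929 the groups were shRNA1 with a scramble of its own and shRNA2 with another. Each line is established in culture, and the control cells were transduced as well. No label states whether the paired libraries of a group are separate cultures or technical repeats. P-values therefore rest on the spread seen here alone.

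Dividing cells switch on their genes in 2 waves. Genes for DNA replication are released by E2F transcription factors at the end of the first gap phase, and genes for chromosome segregation are switched on later by MYBL2 and FOXM1 bound to a multiprotein complex named MuvB. In cells that leave the cycle the same MuvB core, joined to a pocket protein and a repressive E2F, holds both sets down. E2F proteins bind E2F sites, and MuvB binds a short element named CHR, often near CCAAT boxes.

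Reads counted in genes totalled 20.46 to 28.42 M per MM1.S library (6 libraries) and 15.93 to 22.25 M per H929 library (8 libraries). Values are normalized read counts, that is reads divided by a size factor of the library within its line, and levels are not compared between lines. Log2 fold changes are knockdown over scramble on the scale of log2(value + 1), with their standard error. All 6 plasma cell markers had reads in both lines, and their sum was 3823 to 4015 RPM (reads per M reads in genes) in MM1.S scramble and 2281 to 2792 in MM1.S knockdown libraries, 4643 to 4974 in H929 scramble and 3976 to 4807 in H929 knockdown libraries. The summed B cell and myeloid markers stayed at or below 4.53 RPM everywhere. T cell markers summed to 10.3 to 31.4 RPM in H929 knockdown libraries and to 10.7 or less in the H929 scrambles, nearly all from CD3E, with CD3D, CD3G and CD2 at or near 0. Stromal and epithelial markers reached 35.0 in H929 with shRNA1, nearly all from COL1A1, with COL1A2 and COL3A1 at or near 0. Mitochondrial transcripts made up 9.87 to 10.2% of reads in MM1.S scramble and 11.6 to 12.1% in MM1.S knockdown libraries, 6.63 to 7.22% in H929 scramble libraries. In H929 the hairpins lay on opposite sides of every scramble, with 5.98 to 6.34% for shRNA1 and 8.72 to 8.80% for shRNA2. The part of these markers and shares in the results was not tested.

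The H929 scramble pairs stood apart from each other. Of 15751 genes tested, 1324 were higher and 2081 lower in the scramble for shRNA1 than in the scramble for shRNA2 (21.6% called with limma). All 66 genes of the mitosis list and all 50 of the replication list were lower in the scramble for shRNA1, with median log2 differences of -1.32 and -1.27, and 38 of 42 type I interferon-stimulated genes were higher, with a median of 1.10. Because the average subtracts both pairs, its H929 component is the same whichever scramble is matched with which hairpin. The effect of each H929 hairpin alone does depend on the match. Among the shared calls named below, knockdown and scramble libraries of H929 overlapped for CTSF, CTSZ, IGHA1, IGHA2, GABARAPL1, PIK3IP1, YPEL3, BBC3, CDKN1C, ERO1B, DTX3L and TBKBP1. They also overlapped for HELLS, HNRNPA1, SRSF3, HSPA8, BCL6, KLF2, MYBL1, RPL32, NDUFB6, GADD45A and FOSB. Knockdown and scramble libraries of MM1.S overlapped for CDKN1C, HRK, RPL35 and MTHFD2.

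ZBP1 (ENSG00000124256, chr20:57603846-57620576, GRCh38, minus strand) was the targeted gene. In MM1.S its normalized read count was 3357 and 3551 with scramble, 539 and 637 with shRNA1 and 367 and 443 with shRNA2. In H929 it was 4269 and 4513 with the scramble for shRNA1 and 1659 and 1888 with shRNA1, then 3449 and 3729 with the scramble for shRNA2 and 1229.5 and 1109.6 with shRNA2. Every knockdown library lay below every scramble library of its line. The hairpins left 17.0% and 11.7% of the scramble level in MM1.S and 40.4% and 32.6% in H929. The average log2 fold change was -2.14 ± 0.07 (limma adjusted p = 3.3e-11), from effects of -2.56 and -3.10 in MM1.S and -1.31 and -1.62 in H929.

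Averaged over both hairpins and both lines, genes of DNA replication, mitosis and ribosome biogenesis fell, and a smaller group that includes lysosomal genes and genes linked to quiescence rose. Of 15751 genes tested, 9295 had an average effect that passed the limma test at an adjusted p under 0.05 (59.0%), 4243 of them higher (26.9%) and 5052 lower (32.1%). Changes of 2-fold or more were seen for 493 of the higher and 918 of the lower genes. The median over all genes tested was -0.01. Higher genes made up 45.6% of the calls, but 50.3% with edgeR on whole reads (4784 higher, 4735 lower) and 50.1% with DESeq2 (4517 and 4502). The slight majority of lower genes thus depended on the setting. Values for limma were scaled within each line, and edgeR and DESeq2 scaled over all 14 libraries, so test and scaling changed together. The median over all genes tested was 0.03 with edgeR and also with DESeq2.

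An average can pass the test because 1 or 2 of its 4 effects are large. An F test of the equality of the 4 effects was passed by 9793 genes (62.2%), so for most genes the 4 effects were unequal in size. Each effect is taken against its own scramble, so the gap between the H929 scramble pairs also enters this test. The MM1.S average called 7565 genes (48.0%) and the H929 average 7735 (49.1%), 2 lists with no library in common. In H929 the calls split into 3439 higher and 4296 lower with limma but 4384 and 3584 with edgeR, a share of higher genes of 44.5% against 55.0%. The median H929 effect was -0.02 with limma and 0.06 with edgeR, and here too the scaling differed along with the test. Both lines called 1724 genes higher, which is 51.0% of the MM1.S list and 50.1% of the H929 list. Both called 2608 lower, 62.3% of the MM1.S and 60.7% of the H929 list, and 428 genes were called in opposite directions.

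Genes called in the average and in both line averages, with all 4 effects of the same sign, are termed shared calls below. There were 1361 higher (8.64%) and 2131 lower (13.5%) among the genes tested, and the demand for 4 equal signs is a selection and not a test. Of the other 5803 genes called in the average, 3977 had effects of mixed sign, and 1826 had 4 effects of 1 sign but were not called in both line averages. Among shared calls the median average effect was 0.69 for the higher and -0.74 for the lower genes. All 4 effects reached 2-fold for 317 lower genes and 50 higher genes. With all 4 H929 scrambles as control for both H929 hairpins the shared calls numbered 1336 higher and 2027 lower. Protein-coding genes made up 94.8% of the lower and 83.2% of the higher shared calls, against 79.2% of all genes tested. Without any comparison of groups by a model, 1084 genes (6.88%) had every knockdown library below every scramble library in both lines, and 775 (4.92%) had every one above.

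**Figure D1:**
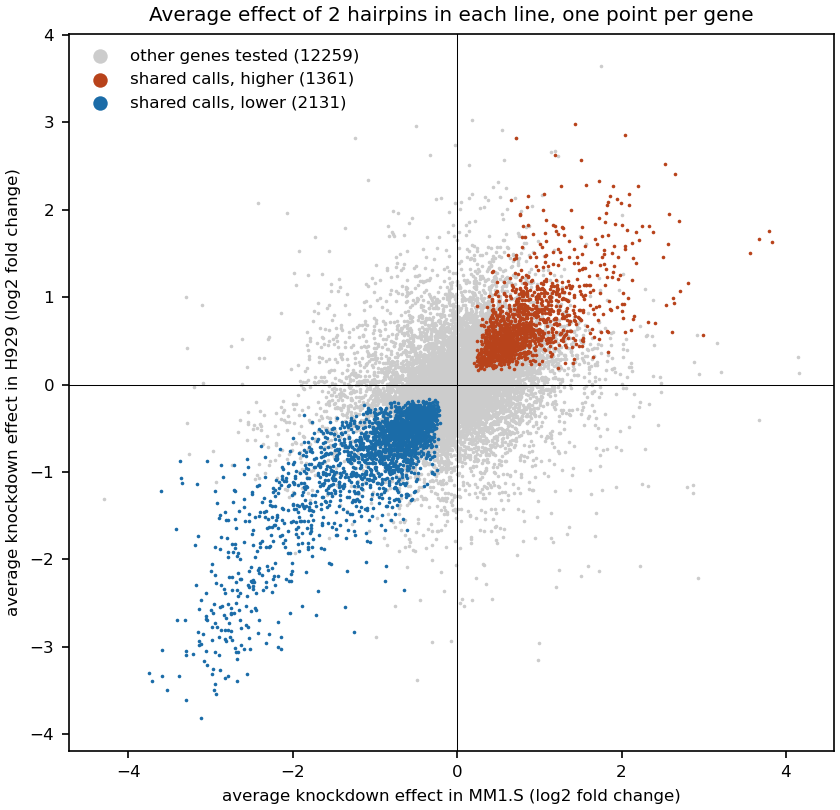
Average effect of 2 hairpins in MM1.S (x axis) against H929 (y axis), as log2 fold changes, with 1 point for each of 15751 genes. The 2131 lower shared calls form a long tail towards the lower left corner, and the 1361 higher shared calls a shorter cloud in the upper right.

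The 10 strongest lower genes by the smallest of their 4 effects were CENPA, MCM10, BIRC5, FAM111B, CDK1, UHRF1, MYBL2, EXO1, RRM2 and CDC45. Their average log2 fold changes ran from -3.55 to -2.88. CENPA (ENSG00000115163, chr2:26764289-26801067) encodes the histone that marks centromeres, and it stood at 780.0 and 661 in MM1.S with scramble, 66.2 and 79.1 with shRNA1 and 29.2 and 49.3 with shRNA2. In H929 it stood at 105 and 118 and then 5.79 and 10.1 for shRNA1, and at 268 and 266 and then 34.5 and 34.6 for shRNA2. No knockdown library overlapped the scrambles of its line, and the average was -3.53 ± 0.15 (limma adjusted p = 4.0e-10). BIRC5 (ENSG00000089685, chr17:78214186-78225636), or survivin, which serves chromosome segregation and blocks cell death, had the lowest average of the 10, -3.55 ± 0.11 (limma adjusted p = 4.1e-11).

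CDK1 (ENSG00000170312, chr10:60778331-60794852), the kinase that drives entry into mitosis, went from 5412 and 3974 to 649 and 607 with shRNA1 and to 463 and 344 with shRNA2 in MM1.S. In H929 it went from 199 and 228 to 13.2 and 24.9 with shRNA1 and from 568 and 547 to 90.8 and 80.0 with shRNA2. Its average was -3.15 ± 0.13 (limma adjusted p = 4.0e-10), from effects between -3.53 and -2.70. RRM2 (ENSG00000171848, chr2:10120698-10131419), a subunit of the enzyme that makes deoxynucleotides, showed how unevenly a shared gene could respond. Its 4 effects were -3.45 and -2.78 in MM1.S and -5.00 and -2.63 in H929, around an average of -3.47 ± 0.10 (limma adjusted p = 3.2e-11). With shRNA1 in H929 only 48.0 and 72.7 normalized reads were left of 2116 and 1750.0. MKI67, the proliferation marker Ki-67, stood at 21491 and 19630.3 in MM1.S with scramble, 2407 and 2832 with shRNA1 and 2239.9 and 2401 with shRNA2. In H929 it stood at 1711 and 1539 against 89.3 and 143 for shRNA1 and at 4761 and 4871 against 939 and 1066 for shRNA2. The scramble for shRNA1 was the lower of the H929 scrambles and still lay above both H929 hairpins. The average of MKI67 was -3.06 ± 0.09 (limma adjusted p = 3.2e-11).

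**Figure D2:**
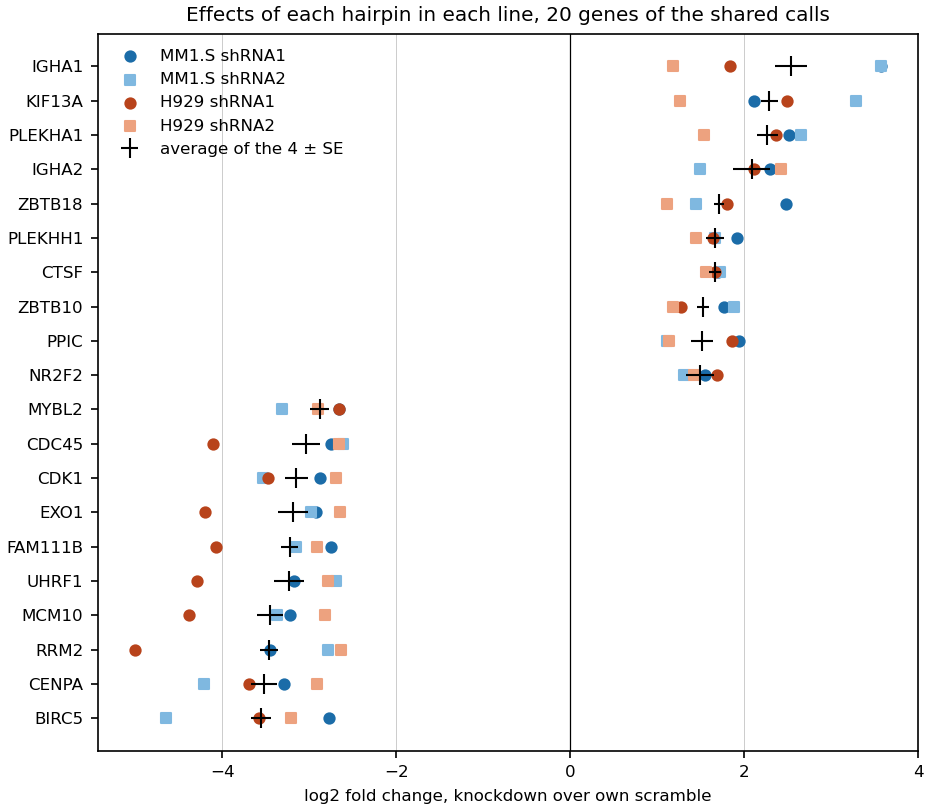
Log2 fold change of each hairpin in each line (coloured points) and the average of the 4 with its standard error (black bars) for the 10 highest and 10 lowest shared calls by smallest effect. The higher genes lie at 1.11 or above in all 4 comparisons and the lower genes at -2.62 or below, with H929 shRNA1 lowest for 6 of them, CDC45, EXO1, FAM111B, UHRF1, MCM10 and RRM2.

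The cell cycle lists moved as blocks. In the list for mitosis and the phase before it, 66 of 66 tested genes fell in the average, where 32.1% of all genes did, and all 66 were shared calls. Their median was -2.66, against -0.01 over all genes, and the medians of the single effects were -2.62 and -2.81 in MM1.S and -2.92 and -2.02 in H929. For 59 of the 66, every knockdown library lay below every scramble library in both lines, which 6.88% of all genes tested did. DLGAP5, which stabilizes spindle microtubules, fell by 3.51 ± 0.21 on the log2 scale (limma adjusted p = 1.2e-08). In the replication list 50 of 50 genes fell, 48 of them shared calls, with a median of -1.95 and single medians of -2.40, -1.95, -1.98 and -1.62. MCM10, which helps start replication, averaged -3.45 ± 0.15 and UHRF1, which carries DNA methylation through replication, averaged -3.24 ± 0.17. The counts of lower genes in both lists were the same under each of the 29 other settings tried, which include leaving out either H929 comparison. Of 32 genes of homologous recombination and the replication checkpoint 31 fell, with a median of -1.76, and 27 of the 32 were lower in the H929 scramble for shRNA1 than in that for shRNA2 (median -1.02). XRCC2 and RAD54L, which serve recombination, averaged -2.80 ± 0.13 and -2.87 ± 0.11. The test of equal effects was not passed by XRCC2 (limma adjusted p = 0.18).

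Set against its own scramble mean, the mean of the mitosis list stood at -2.96 to -1.92 log2 units in the 8 knockdown libraries, whereas the 6 scramble libraries stayed within 0.12 of theirs. For the replication list the 8 values ran from -2.53 to -1.65, and the scrambles stayed within 0.09. Each scramble was set against the mean of its own 2 libraries, so these ranges leave out the gap between the H929 scramble pairs. That gap had a median over genes of -1.32 for the mitosis list and -1.27 for the replication list. In bulk RNA fewer cells in a phase and less RNA per cell cannot be told apart.

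Regulators of the cycle were mixed. Of 22 genes of CDK inhibitors, D-type cyclins and the RB family tested, 9 fell and 6 rose, with a median of -0.11. The shares were 40.9% and 27.3%, where 32.1% of all genes tested fell and 26.9% rose. CDC25A, the phosphatase that activates CDK2, averaged -2.72 ± 0.11 (limma adjusted p = 1.7e-10), and CDK2 itself -1.61 ± 0.09 (limma adjusted p = 4.6e-09). MYBL2, a transcription factor of the second wave, averaged -2.88 ± 0.11. CDKN1C (p57), an inhibitor of CDKs, rose by 1.54 ± 0.17 (limma adjusted p = 5.5e-06), more with shRNA1 (2.14 and 2.94) than with shRNA2 (0.40 and 0.68). CDKN1A (p21), which p53 induces, gave 0.08 ± 0.08 (limma adjusted p = 0.372) and did not move together, with effects of 0.52, 0.13, -0.40 and 0.09. It passed as higher without MM1.S scramble replicate 2 (0.20, limma adjusted p = 0.039) and as higher without the H929 shRNA1 comparison (0.25, limma adjusted p = 0.040). Of 27 p53 targets 14 rose and 5 fell, but 8 and 8 without the MM1.S shRNA1 comparison and 9 and 8 without the H929 shRNA1 comparison.

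Promoter sequences were read for the cell cycle genes because they fell together. RefSeq promoters (GRCh38.p14), from 250 bases before to 50 after the start of a gene, matched 10946 of the 15751 genes tested. The letters TTTGAA or TTCGAA were taken as CHR, and TTTGGCGC, TTTCCCGC, TTTGCCGC or TTTCGCGC as E2F, both strands were searched, and matches of different motifs could overlap. Stretches before the start site are shown for 6 named genes that have a match there, chosen after their values were seen, with the matching letters in capitals. The first 3 are shown for CHR and the last 3 for E2F letters.
CENPA (chr2:26785978-26786055, plus strand): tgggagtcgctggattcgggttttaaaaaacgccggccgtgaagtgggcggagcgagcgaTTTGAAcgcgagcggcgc
MKI67 (chr10:128126424-128126512, minus strand): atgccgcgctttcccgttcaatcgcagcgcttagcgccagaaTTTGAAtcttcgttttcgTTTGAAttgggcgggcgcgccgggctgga
CDK1 (chr10:60778110-60778217, plus strand): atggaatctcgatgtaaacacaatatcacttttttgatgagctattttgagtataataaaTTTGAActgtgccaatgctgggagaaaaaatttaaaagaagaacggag
UHRF1 (chr19:4909427-4909500, plus strand): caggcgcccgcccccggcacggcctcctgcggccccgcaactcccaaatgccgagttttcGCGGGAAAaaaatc
CDC25A (chr3:48188418-48188521, minus strand): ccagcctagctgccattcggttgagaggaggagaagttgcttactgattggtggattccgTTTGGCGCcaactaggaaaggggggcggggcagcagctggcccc
HELLS (chr10:94545720-94545787, plus strand): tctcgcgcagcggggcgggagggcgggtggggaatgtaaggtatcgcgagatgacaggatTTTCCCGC
In CENPA the CHR letters began at -18 from the listed start, with E2F letters farther up at -232, in MKI67 the nearer of 2 matches at -29, and in CDK1 at -161. The E2F letters began at -14 in UHRF1, at -44 in CDC25A and, as 1 of 2 matches, at -8 in HELLS, which remodels chromatin for DNA methylation and averaged -1.69 ± 0.08.

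The 2 cell cycle lists differed in these letters. CHR was found in 71.9% of 57 promoters of the mitosis list and in 4.55% of 44 of the replication list, against 11.1% of all 10946. E2F letters showed the reverse, 8.77% and 52.3%, against 5.30% of all. CCAAT was found in 73.7% and 54.5%, against 36.8%. Among the 1719 lower shared calls with a promoter in the table, 15.9% held CHR and 9.08% E2F, and among those with 4 effects of at least 2-fold 38.2% and 17.4%. Among higher shared calls the shares were 8.13% and 3.41%. Outside every list, 15.0% and 7.29% of the lower shared calls held CHR and E2F. Of the 10 lowest genes 8 had a promoter in the table, 2 with CHR and 4 with E2F. A match describes letters and is not a site.

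**Figure D3:**
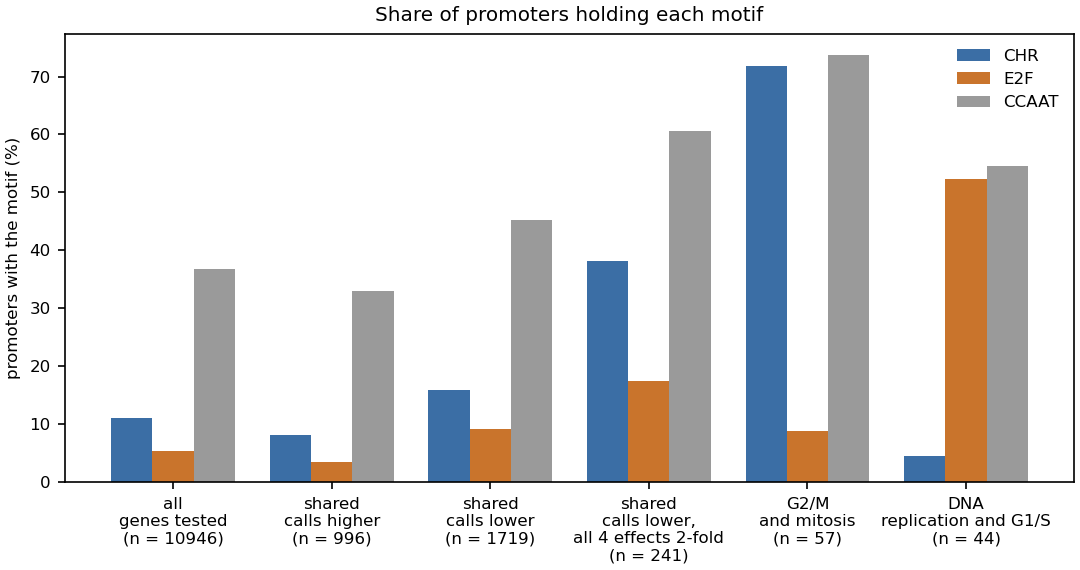
Percent of promoters that hold CHR, E2F or CCAAT letters in all genes tested, in the shared calls and in 2 gene lists (n is the number of promoters). The mitosis list reaches 71.9% for CHR and the replication list 52.3% for E2F, against 11.1% and 5.30% of all promoters.

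Ribosome biogenesis, which MYC drives and which sets the capacity for protein synthesis, also fell. Of 46 genes tested 45 fell and 35 were shared calls, with a median of -0.59 and single medians from -0.66 to -0.45. The H929 scrambles differed by as much on this list: 38 of the 46 genes were lower in the scramble for shRNA1, with a median difference of -0.54. LYAR, a nucleolar protein, went from 1437 and 1269 to 487 and 434 with shRNA1 and to 483 and 456 with shRNA2 in MM1.S. In H929 it went from 525 and 569 to 214 and 273 with shRNA1 and from 906 and 970.1 to 379 and 382 with shRNA2. Its average was -1.39 ± 0.07 (limma adjusted p = 3.1e-09), with no overlap of knockdown and scramble libraries in either line. FBL, the methyltransferase of ribosomal RNA, averaged -1.31 ± 0.06 and SRM, which makes the polyamine spermidine, -1.17 ± 0.10. In this list 1 gene differed between lines, where 22.4% of all genes tested did. MYC itself averaged -0.75 ± 0.08 (limma adjusted p = 3.7e-06), but its effects were 0.00 with shRNA1 and -1.08 with shRNA2 in MM1.S and -0.72 and -1.19 in H929. Its level in MM1.S was 14183 and 16544 with scramble and 14012 and 16844 with shRNA1, which overlap. The E-box letters CACGTG were found in 35.1% of 37 promoters of the biogenesis list, against 10.1% of all.

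RNA processing and protein quality control also leaned down, by less, and these lists too were lower in the H929 scramble for shRNA1, for 20 of 33 splicing factors (median -0.42), 19 of 28 chaperones (-0.68) and 26 of 37 proteasome genes (-0.45). Of 33 splicing factors 25 fell and 6 rose (median -0.42). HNRNPA1 averaged -0.85 ± 0.06 and SRSF3 -0.81 ± 0.05, both binding exonic or intronic RNA to steer splice choice. Of 28 heat shock genes and cytosolic chaperones 23 fell and 2 rose (median -0.44). HSPA8, the constitutive HSP70, averaged -0.71 ± 0.11, and DNAJB4, an HSP40 partner, rose by 0.74 ± 0.12. Of 37 proteasome genes 28 fell and 1 rose (median -0.33), among them PSMG1, an assembly chaperone, with -1.30 ± 0.07.

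In the secretory and plasma cell lists most genes fell, unevenly between hairpins and lines. Of 35 plasma cell identity genes 25 fell and 3 rose, with a median of -0.37, and 13 were shared calls, all lower. The 3 higher calls became 6 without MM1.S scramble replicate 1 or the MM1.S shRNA2 comparison, and 5 with a replicate block, with edgeR, with DESeq2 and without the H929 shRNA2 comparison. XBP1, which builds the secretory machinery, stood at 31742 and 28183 in MM1.S with scramble, 17817 and 17258 with shRNA1 and 13712 and 13717 with shRNA2. In H929 it stood at 28597 and 28289 against 18980.4 and 18688 and at 32793 and 34082 against 22319.5 and 20519. The groups did not overlap in either line, and the average was -0.78 ± 0.05 (limma adjusted p = 2.3e-08). GPRC5D, a surface receptor of plasma cells, averaged -2.21 ± 0.09 and EAF2, an elongation factor partner, -1.28 ± 0.10. IRF4, the factor that sustains survival of myeloma cells, averaged -0.73 ± 0.06 (limma adjusted p = 2.9e-07) without being shared, with effects of -1.59 and -1.004 in MM1.S and 0.30 and -0.63 in H929. PRDM1, the regulator of plasma cell fate, averaged -0.37 ± 0.05 and likewise had a positive effect with shRNA1 in H929, 0.61. SDC1 (CD138) averaged -0.30 ± 0.08 (limma adjusted p = 0.00529), and without the H929 shRNA1 comparison -0.22 (limma adjusted p = 0.069). Of 38 genes for folding in the ER and the unfolded protein response 23 fell and 4 rose (median -0.27). With shRNA1 and shRNA2 the single medians were -0.31 and -0.42 in MM1.S and 0.08 and -0.31 in H929. P4HB averaged -0.98 ± 0.08 and PDIA4 -0.93 ± 0.05, both disulfide isomerases, and ERO1B, which supplies them with oxidizing power, 1.32 ± 0.11.

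Most genes of the metabolic lists fell. Of 33 genes of cholesterol and fatty acid synthesis 26 fell and 2 rose (median -0.51). With shRNA1 and shRNA2 the single medians were -0.79 and -0.72 in MM1.S but -0.15 and -0.33 in H929. The line averages differed in the limma test for 20 of the 33, where 22.4% of all genes tested did. SCD, which makes monounsaturated fatty acids, averaged -1.71 ± 0.06. It was lower in the MM1.S average (-2.21 ± 0.10) than in the H929 average (-1.21 ± 0.08), with limma adjusted p = 1.7e-04 for the difference between lines. Of 29 genes of glycolysis and hypoxia 17 fell and 5 rose (median -0.36), the latter 3 without the MM1.S shRNA1 comparison. Among the lower were LDHA, GPI and HK2 (3 glycolytic enzymes) at -1.39 ± 0.10, -1.25 ± 0.12 and -1.14 ± 0.07. The test of equal effects was not passed by GPI (limma adjusted p = 0.64).

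**Figure D4:**
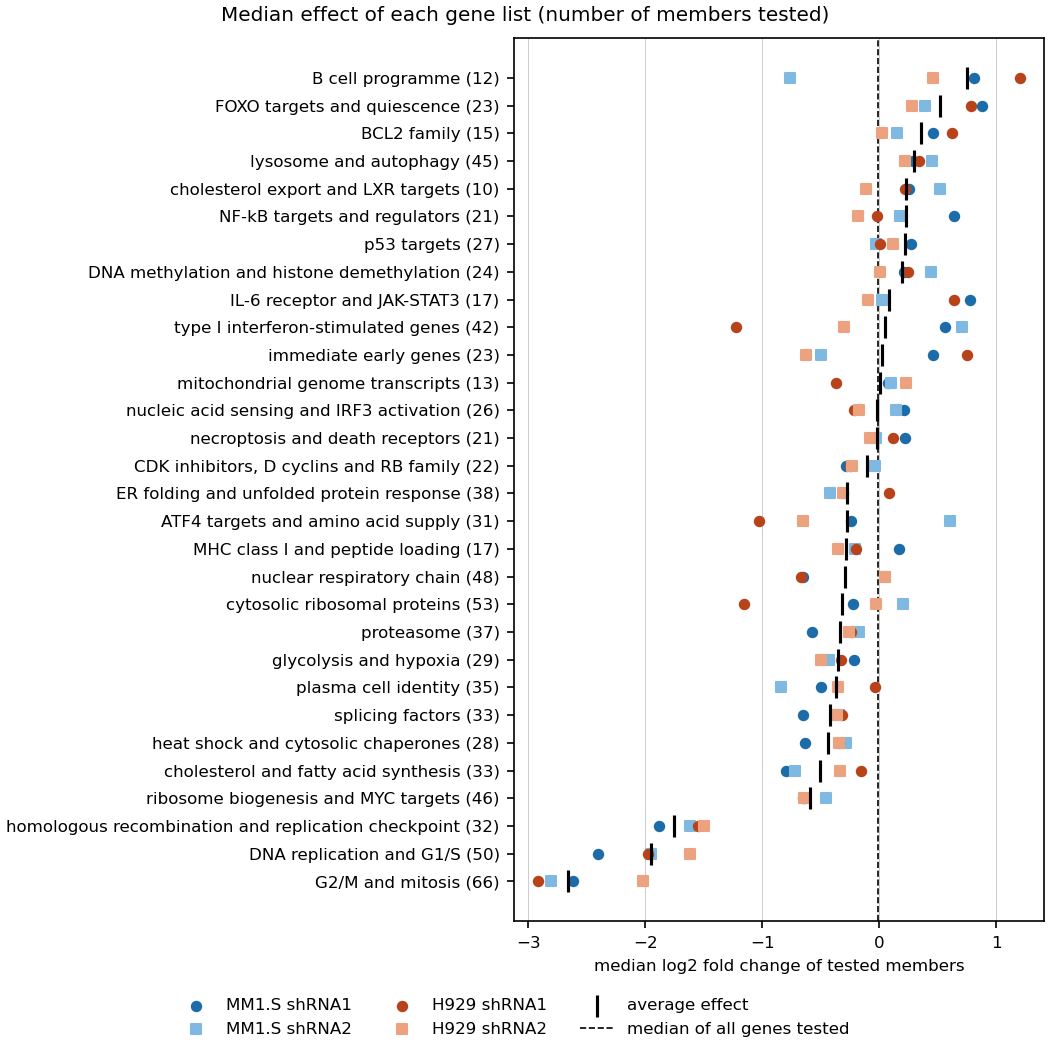
Median log2 fold change of the tested members of 30 gene lists with at least 5 of them, for each hairpin in each line (coloured points) and for the average (black bars). The 3 lists of mitosis, replication and recombination lie below -1.5 in all 4 comparisons except for recombination in H929 with shRNA2 (-1.50), and the interferon-stimulated genes run from -1.22 to 0.70.

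On the rising side, changes were smaller. Most shared calls lay outside the lists: 1295 of the 1361 higher and 1802 of the 2131 lower belonged to none of them. The lists held only 923 tested genes, 66 of them higher and 329 lower shared calls. Among all genes tested 8.64% were higher and 13.5% lower shared calls. Lower shared calls were thus more frequent in the lists than among all genes tested, and higher ones were not. The lists were chosen with earlier results known. The 10 highest by smallest effect were CTSF, PLEKHA1, IGHA2, PLEKHH1, NR2F2, KIF13A, IGHA1, ZBTB10, ZBTB18 and PPIC, with averages between 1.49 and 2.54. CTSF (ENSG00000174080, chr11:66563463-66568841, minus strand), the lysosomal protease cathepsin F, had 4 effects of 1.69, 1.72, 1.67 and 1.56, which did not pass the test of unequal size (limma adjusted p = 0.85). It went from 277 and 297 to 888 and 974 with shRNA1 and to 945 and 944 with shRNA2 in MM1.S, from 1482 and 2000.1 to 5500.0 and 5424 with shRNA1 in H929 and from 624 and 666 to 1937 and 1859 with shRNA2. Its average was 1.66 ± 0.07 (limma adjusted p = 3.5e-10), although the H929 groups overlapped, since the scramble for shRNA1 reached the level of shRNA2. KIF13A (ENSG00000137177, chr6:17759183-17987623, minus strand), a kinesin that carries vesicles, rose from 72.4 and 52.6 to 279 and 262 with shRNA1 and to 654 and 569 with shRNA2 in MM1.S. In H929 it rose from 168 and 152 to 932 and 873 and from 116 and 147 to 316 and 313, with no overlap in either line. Its average was 2.29 ± 0.09 (limma adjusted p = 2.8e-10). PLEKHA1 (ENSG00000107679, chr10:122374696-122442602, plus strand), a phosphoinositide-binding adaptor, averaged 2.27 ± 0.13.

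The transcriptional repressors ZBTB10 and ZBTB18 averaged 1.53 ± 0.07 and 1.71 ± 0.06, and the nuclear receptor NR2F2 1.49 ± 0.16 from effects of 1.55, 1.30, 1.68 and 1.42. IGHA1 and IGHA2 encode the heavy chain constant regions of IgA and averaged 2.54 ± 0.18 and 2.08 ± 0.21. In H929 both shRNA2 libraries lay below both libraries of the scramble for shRNA1 (IGHA1 at 1142 and 1057 against 1507 and 2439.6), and above their own scramble (469.6 and 498). Their sequences are nearly identical, so how reads were divided between them is uncertain. IGHA1 ranged from 10.5 to 250.5 in MM1.S and from 469.6 to 7611 in H929. PLEKHA1, PLEKHH1, NR2F2, KIF13A, ZBTB10 and PPIC each overlap a gene on the opposite strand in GENCODE release 29, and whether counting used strand is not stated.

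Lysosomal genes and genes of quiescence were the higher lists with the most shared calls. Of 45 lysosome and autophagy genes 30 rose and 4 fell, where 26.9% and 32.1% of all genes did, with a median of 0.30 and single medians of 0.22 to 0.45. The 4 lower calls became 2 with edgeR and DESeq2, without MM1.S shRNA2 replicate 2 and without replicate 1 of the H929 scramble for shRNA2. Each of the 8 knockdown libraries stood 0.21 to 0.42 log2 units above its scramble mean for this list, and scrambles stayed within 0.04. The range of the scrambles leaves out the gap between the H929 scramble pairs. In the scramble for shRNA1 11 of the 45 genes were higher and 1 lower than in that for shRNA2 (median 0.12). CTSZ, another cathepsin, averaged 1.62 ± 0.10, and GABARAPL1, which joins autophagosome membranes, 1.13 ± 0.06, mostly from shRNA1 (2.498 and 1.54). GLA, the galactosidase of lysosomes, fell, with -1.18 ± 0.09. Of 23 FOXO targets and quiescence genes 18 rose and 1 fell, with a median of 0.52. In the H929 scramble for shRNA1 13 of the 23 were higher than in that for shRNA2, with a median difference of 0.63, against a median effect of 0.28 for H929 shRNA2. The 1 lower call became 2 without MM1.S scramble replicate 1 and 4 without the H929 shRNA1 comparison.

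PIK3IP1 (ENSG00000100100, chr22:31281593-31292534, minus strand), an inhibitor of PI3-kinase, stood at 861 and 836 in MM1.S with scramble, 6118 and 5609.6 with shRNA1 and 1590.2 and 1513 with shRNA2. In H929 it stood at 779 and 975 against 6732 and 5741 for shRNA1 and at 243 and 251 against 560.1 and 633 for shRNA2, so the 2 H929 arms overlapped through the scramble for shRNA1. Its average was 1.94 ± 0.07 (limma adjusted p = 7.6e-11). FOXO4, a transcription factor of this programme, averaged 1.14 ± 0.06 with no overlap in either line, and YPEL3, linked to growth arrest, 1.17 ± 0.10.

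Of 15 BCL2 family genes 10 rose and 3 fell, with a median of 0.36, and 4 were shared calls, all higher. BMF (ENSG00000104081, chr15:40087890-40108892, minus strand), which frees BAX and BAK from their inhibitors, rose from 2525 and 2802 to 12620.2 and 12389 with shRNA1 and to 6027 and 6497 with shRNA2 in MM1.S. In H929 it rose from 3353 and 3728 to 7402 and 6878 and from 2313 and 2233 to 4855 and 4783, with every knockdown library above every scramble library. Its average was 1.39 ± 0.05 (limma adjusted p = 1.1e-10). BBC3 (PUMA) and HRK, 2 other inducers of apoptosis, averaged 1.12 ± 0.11 and 1.18 ± 0.11, the latter almost entirely from shRNA1 (2.92 in MM1.S and 1.47 in H929, against 0.15 and 0.19). Of 24 genes of DNA methylation and histone demethylation 12 rose and 8 fell (33.3%), where 26.9% and 32.1% of all genes tested did. Single medians of this list were 0.21 for shRNA1 and 0.44 for shRNA2 in MM1.S, and 0.24 and 0.002 in H929. In the mean of the list the H929 shRNA2 libraries stood at -0.11 and -0.07 against their own scramble mean, so this hairpin showed no rise in H929. KDM7A, a histone demethylase, averaged 1.57 ± 0.09 and EZH2, which methylates histone H3, -1.07 ± 0.06.

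**Figure D5:**
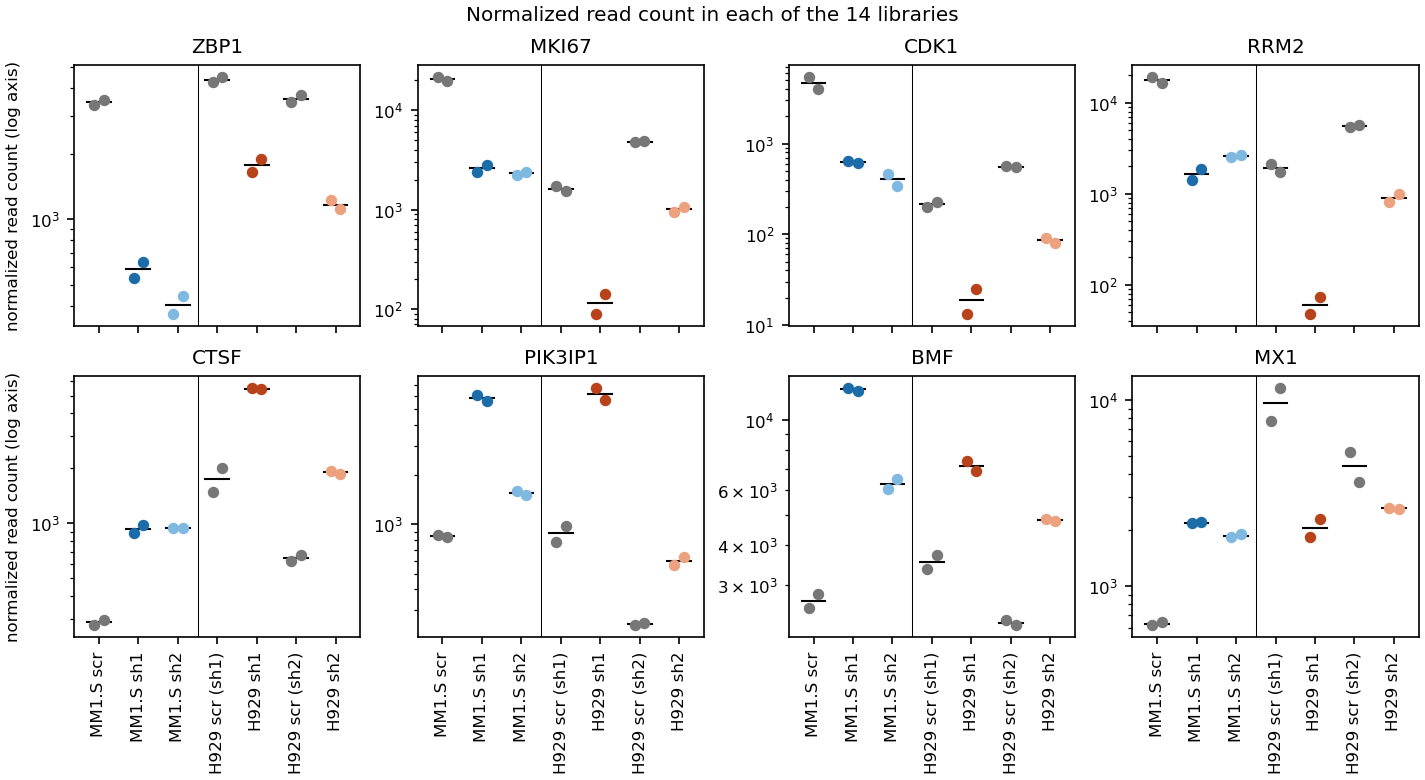
Normalized read counts on log axes for 8 genes in the 14 libraries (points, 2 per group, with the group mean as a line; grey, scramble; colours, knockdown; the vertical line parts MM1.S from H929). MKI67, CDK1 and RRM2 fall in all 4 comparisons, BMF rises in all 4, and MX1 rises in MM1.S and falls in H929.

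Several lists had an average that stood for no single comparison. Interferon-stimulated genes gave a median of 0.05, with 13 of 42 higher and 17 lower, from a median of 0.71 in MM1.S and -0.73 in H929. The shares were 31.0% higher and 40.5% lower, against 26.9% and 32.1% of all genes tested. With shRNA1 and shRNA2 the single medians were 0.56 and 0.70 in MM1.S and -1.22 and -0.30 in H929. In the mean of the list the H929 shRNA2 libraries stood at -0.18 and -0.16, and their own scrambles at -0.25 and 0.25. The H929 scramble for shRNA1 was higher than that for shRNA2 for 38 of the 42 genes (median difference 1.10). For 29 of the 42 the line averages differed in the limma test, where 22.4% of all genes did. MX1, an antiviral GTPase, was called higher in MM1.S (1.69 ± 0.16) and lower in H929 (-1.47 ± 0.13), and averaged 0.11 ± 0.10 (limma adjusted p = 0.386). Its level rose from 620.0 and 639.6 to 2187 and 2209.9 with shRNA1 and to 1841 and 1904 with shRNA2 in MM1.S and fell from 7749 and 11587 to 1829 and 2291 and from 5253 and 3625 to 2635 and 2604 in H929. ISG15, a ubiquitin-like modifier, averaged -0.41 ± 0.09, from 0.94 ± 0.14 in MM1.S and -1.75 ± 0.12 in H929, and without the H929 shRNA1 comparison its mean was 0.31. The core letters of the interferon-stimulated response element, GAAA, any 2 bases and GAAA again, were found in 64.7% of 34 promoters of this list, against 2.97% of all. Without the H929 shRNA1 comparison 22 genes of the list were higher and 4 lower, and without the MM1.S shRNA2 comparison 8 were higher.

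Among the interferon-stimulated genes 1 shared call was higher and 3 were lower. DTX3L, a ubiquitin ligase, rose by 0.98 ± 0.09, while HERC5, the ligase that attaches ISG15, averaged -0.93 ± 0.12 and EIF2AK2 (PKR), which senses double-stranded RNA, -0.89 ± 0.09. Of 26 genes that sense nucleic acids or activate IRF3, 10 rose (38.5%, against 26.9% of all genes), 5 without the MM1.S shRNA1 comparison, and 9 fell (34.6%, against 32.1%). IRF3, a transcription factor downstream of these sensors, averaged 0.19 ± 0.07 (limma adjusted p = 0.0334). This call was lost without MM1.S scramble replicate 1 (0.11, limma adjusted p = 0.21) and without 7 other single libraries (0.16 to 0.19, limma adjusted p from 0.053 to 0.077). Those were replicate 2 of MM1.S shRNA1, of MM1.S shRNA2 and of the H929 scramble for shRNA1, and replicate 1 of each of the 4 H929 groups. TBK1, its kinase, gave -0.09 ± 0.09 (limma adjusted p = 0.396). MB21D1, which encodes the DNA sensor cGAS, averaged -0.87 ± 0.07, and TBKBP1, an adaptor of TBK1, 1.22 ± 0.12. RIPK3 was listed at 0 in all 8 H929 libraries and so entered no test, with 80.0 and 97.1 in MM1.S scramble, 141 and 158 in shRNA1 and 153 and 168 in shRNA2 libraries. MLKL, which RIPK3 activates to lyse cells, averaged -0.24 ± 0.07 (limma adjusted p = 0.00708), and -0.11 without the H929 shRNA1 comparison (limma adjusted p = 0.27). ADAR, an RNA editor that binds Z-form RNA, gave -0.08 ± 0.05 (limma adjusted p = 0.136).

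Other averages followed 1 hairpin. The effect of shRNA1 differed from that of shRNA2, taken over both lines, for 8086 genes (51.3%), against 3529 (22.4%) for the difference between lines. The contrast between lines had the larger median standard error, 0.19 against 0.15 log2 units, so the 2 counts differ in power. The count for lines rose to 5571 with a replicate block in each line and to 5501 without the H929 shRNA2 comparison. The contrast between hairpins depends on which H929 scramble is matched with which hairpin, and the contrast between lines does not. The count for hairpins rose to 9751 with all 4 H929 scrambles as control for both H929 hairpins. With a replicate block in each line it rose to 9376. By 2-fold or more the counts were 1653 higher and 816 lower with shRNA1 than with shRNA2, and 547 higher and 693 lower in MM1.S than in H929. Genes of the nuclear respiratory chain had medians of -0.66 with shRNA1 in MM1.S and -0.67 in H929, but 0.05 with shRNA2 in each. Of the 48 tested, 45 differed between hairpins and 3 between lines, while the average called 32 lower and 2 higher, the latter 6 without the H929 shRNA1 comparison and 5 without the MM1.S shRNA1 comparison. Cytosolic ribosomal proteins had medians of -0.22 and 0.20 in MM1.S and -1.15 and -0.03 in H929. In the H929 scramble for shRNA1 36 of the 53 were lower than in the other scramble (median -0.36). The average called 49 of the 53 lower, but 8 without the H929 shRNA1 comparison, and 3 were shared calls. The 4 genes with the largest opposite line averages were MX1, AHNAK, LINC00861 and SOD1P3. AHNAK, a giant scaffold protein, stood at 79.8 and 92.7 with scramble and 2752 and 2495 with shRNA1 in H929, and at 934 and 854 with scramble and 48.0 and 48.3 with shRNA2 in MM1.S. Its effects of -0.66, -4.19, 4.91 and -0.75 averaged -0.17 ± 0.11 (limma adjusted p = 0.188).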

How the data were processed

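Poly(A)-selected RNA of 14 libraries was measured. Per the submitters' processing notes, STAR 2.5.3a and DESeq2 1.24.0 were used on GRCh38 (hg38). The counting tool, annotation and strand setting are not given in the sources used here. For MM1.S the authors deposited whole-number read counts per gene. For H929 the deposited values, although titled as raw, are a scaled signal: the authors had divided the counts of each library by a size factor. Multiplied back, 100% of values were whole within 0.01. The columns of shRNA2 and of 1 H929 scramble replicate, not plain from their names, were settled by comparing them with the log2 fold changes in the authors' deposited tables.

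The tables were joined by Ensembl identifier (58051 genes after 18 repeated identifiers were left out). MM1.S counts were divided by median-of-ratios size factors, and H929 values were used as deposited. The 15751 genes that reached 10 in 2 or more libraries of each line were fitted with limma 3.58.1 in R 4.3.3 on log2(value + 1), 7 group means, with trended empirical Bayes, 7 residual and 6.33 prior degrees of freedom, and Benjamini-Hochberg adjustment over all of them (threshold 0.05). The code was tested on simulated data. The members, the 33 gene lists and the named genes were chosen with earlier results of these data known, and the contrast between hairpins and the difference between the H929 scrambles were added after the data were seen. Named were 16 chosen genes, the 10 highest and 10 lowest shared calls by smallest effect with a symbol and a mean of at least 50 in each line, up to 3 shared calls per list by average effect, and the 4 genes with the largest opposite line averages (118 in all, of which 5 are not reported here). Of the 117 tested, 67 overlap another gene in GENCODE release 29, 57 of them on the opposite strand. Older symbols were matched through the reference table, and each gene's first listed promoter was used. Alternatives were TMM scaling, pseudocounts of 0.5 and 5, other filters, each library or comparison left out, a replicate block, array weights, edgeR 4.0.16 and DESeq2 1.42.0 on whole reads, and, added later, all 4 H929 scrambles for both H929 hairpins.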

Additional observations from a re-analysis of the deposited data

Results flagged for a closer look

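For 42 named genes the average effect in MM1.S differed from that in H929 in the limma test of the difference itself (adjusted p under 0.05). Values are the MM1.S minus the H929 average on the log2 scale, each from 4 knockdown libraries of a line against its scrambles.

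The knockdown itself was deeper in MM1.S, with ZBP1 at -1.36. Most of the interferon-linked genes were higher in MM1.S relative to H929: MX1 3.16, ISG15 2.70, DTX3L 1.08, TBKBP1 1.21 and ADAR 0.51. Plasma cell regulators and receptors were lower in MM1.S, with IRF4 at -1.13, PRDM1 at -0.79, XBP1 at -0.33, GPRC5D at -2.30 and KLF2 at -2.17.

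The lipid enzymes SCD and FADS2 and the glycolytic enzyme LDHA were lower in MM1.S, at -1.002, -0.82 and -0.85. Genes of cell death and stress mostly differed the other way. BMF was at 0.69, HRK at 0.71, BBC3 at 0.71, CASP9 at 0.44, CDKN1A at 0.48, RRM2B at 0.68 and TNIP2 at 0.62, whereas GADD45A was at -0.35. ERO1B stood at 1.44 and MTHFD2 at 0.76, and FOSB at -1.78.

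Among cell cycle and chromatin genes RRM2 was at 0.70, CDK2 at -0.75, MYBL1 at -0.94 and EZH2 at -0.62. The ribosomal proteins RPL32 and RPL35 were at 0.69 and 0.52, and NDUFB6 of the respiratory chain at -0.52. Lysosome and autophagy genes were divided, with CTSZ at 0.72, GABARAPL1 at 0.56 and GLA at -0.93. The higher genes KIF13A, IGHA1, ZBTB10 and ZBTB18 were at 0.82, 2.06, 0.59 and 0.50. AHNAK, SOD1P3 and LINC00861, chosen for opposite line averages, were at -4.51, -3.09 and -3.45, which describes that choice.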

How the results depend on the processing

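Among 29 other settings the genes called higher in the average ran from 3856 to 4843 and lower from 4502 to 5636. With 1 library left out they ran from 3856 to 4192 and from 4678 to 5039, the MM1.S average from 2764 to 3328 higher and 3540 to 4158 lower, the H929 average from 2749 to 3629 and 3651 to 4572, unequal effects from 8906 to 10291, shared calls from 1142 to 1356 higher and 1939 to 2155 lower, the difference between lines from 2656 to 3554 and between hairpins from 7129 to 8454. The lone library of such a group is assumed to vary like the others. The difference between lines, 3529, moved to 5501 without the H929 shRNA2 comparison. The difference between hairpins, 8086, moved to 9751 with all 4 H929 scrambles as control for both H929 hairpins. With all 4 H929 scrambles as control for both H929 hairpins there were 1336 higher and 2027 lower shared calls, 1258 and 1938 of them among the 1361 and 2131. Shared calls were kept least without the H929 shRNA1 comparison, 854 of the 1361 higher.

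Replicate numbers were shared between groups, with 2 numbers per group and nothing in the labels saying what a number marks. Deviations of same-numbered libraries correlated at 0.50, 0.57 and 0.78 in MM1.S (11011 genes) and at -0.18 to 0.19 in H929 (10667 genes). With a replicate block in each line the average called 4837 higher and 5636 lower, shared calls were 1673 and 2465, and the difference between lines 5571. With the replicate block in MM1.S only these were 4843, 5623, 1669, 2472 and 5554.

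Of 3248 values for the named genes reported 3203 kept their direction and side of the threshold, 14 lost and 9 gained the call, and 22 changed sign, over 11 genes. SOD1P3 turned positive at a pseudocount of 5 (0.10), with edgeR (0.058) and DESeq2 (0.060) and without the comparisons MM1.S shRNA1 (0.022), MM1.S shRNA2 (0.98) and H929 shRNA2 (0.28). With 1 library left out it ran from -0.23 to 0.20, positive without replicate 1 of each MM1.S group (0.084, 0.071 and 0.034) and without replicate 2 of either H929 scramble (0.025 and 0.022) or H929 shRNA2. TBK1 then ran from -0.20 to 0.018 and CDKN1A from -0.026 to 0.20, both changing sign without MM1.S scramble replicate 1. Without MM1.S shRNA1, CDKN1A was at -0.061 and MX1 at -0.46. Without MM1.S shRNA2, MX1 was at -0.38, AHNAK at 1.17 and LINC00861 at 0.92. Without H929 shRNA1, ADAR was at 0.069 and ISG15 at 0.31. Without H929 shRNA2, AHNAK was at 0.023. The cause was not tested. With 2 libraries a group the median standard error was 0.19 log2 units for the difference between lines and 0.15 for that between hairpins.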

Other observations

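Some lists gave an average with little direction. For comparison, 26.9% of all genes tested rose and 32.1% fell. Of 21 NF-kB targets and regulators 11 rose and 7 fell, with a median of 0.23, and without the H929 shRNA2 comparison 4 fell. Of 23 immediate early genes 8 rose (34.8%) and 6 fell (26.1%), but 4 and 11 without the H929 shRNA1 comparison, and 5 rose without the MM1.S shRNA1 comparison. The medians of this list parted by hairpin, with 0.46 in MM1.S and 0.75 in H929 for shRNA1. For shRNA2 they were -0.50 and -0.62. EGR1, an early growth response factor, averaged -2.15 ± 0.25 (limma adjusted p = 6.1e-06). Its level in MM1.S was low, at 15.2 and 22.3 with scramble, 2.88 and 9.30 with shRNA1 and 2.09 and 2.96 with shRNA2. Of 21 genes of necroptosis and death receptors 9 rose (42.9%) and 7 fell (33.3%), with a median of -0.02. Of 17 genes of MHC class I and peptide loading 2 rose and 10 fell (median -0.28). The 2 higher became 4 without either H929 comparison and with edgeR, 5 with DESeq2, 6 with a replicate block in each line and 5 with the block in MM1.S only. Of 31 ATF4 targets 2 rose and 17 fell, but 7 rose without MM1.S scramble replicate 2 and 4 with a replicate block, and 11 fell without either H929 comparison.

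Of 12 B cell genes tested 8 rose and 2 fell, with 5 higher without the H929 shRNA1 comparison and 1 lower without MM1.S scramble replicate 1 or either MM1.S comparison. BCL6, a repressor active in germinal centre B cells, averaged 1.66 ± 0.15 (limma adjusted p = 7.0e-07), and BACH2, which holds back plasma cell fate, 0.96 ± 0.08 (limma adjusted p = 3.4e-07). The 13 transcripts of the mitochondrial genome had a median of 0.01, with 1 lower call that was lost without several single libraries, among them MM1.S scramble replicate 1. Of 10 genes of cholesterol export 5 rose and 1 fell (median 0.23), and none fell without MM1.S scramble replicate 2. Of 17 genes of IL-6 signalling 6 rose (35.3%, against 26.9% of all genes tested) and 4 fell (23.5%, against 32.1%). The median of this list was 0.08, and 2 genes fell without the shRNA2 comparison of either line. Its medians parted by hairpin, with 0.78 in MM1.S and 0.63 in H929 for shRNA1. For shRNA2 they were 0.02 and -0.10.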
